A study of Mus musculus with 5 samples.

Results

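The genes described here make, lengthen and store fatty acids, and were read in livers of mouse embryos at E18.5, shortly before birth. They were the 37 genes of a list covering 4 steps (fatty acid synthesis, elongation and desaturation, glyceride assembly, and lipid droplets), matched by symbol to the authors' comparison of 23022 genes. Of these, 36 were measured, and Mogat1 was not among the genes of that comparison. The 4N group held 3 livers from Hhex knockout embryos that had received 4N-ESCs, tetraploid embryonic stem cells positive for td-Tomato, as blastocysts. The WT group held 2 livers from normal embryos of the same day. Hhex encodes a homeobox factor needed for liver formation. Ploidy, the origin of the liver cells, the Hhex genotype of the host and its manipulation cannot be told apart, and the labels do not say how many cells of a 4N liver came from the host. Nor do they say whether the livers of a group came from separate litters, so the p-values measure only the spread between these samples.

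In de novo lipogenesis, citrate leaves the mitochondrion and is split into acetyl-CoA, which is carboxylated to malonyl-CoA and built into palmitate by fatty acid synthase. Elongases and desaturases then lengthen the chain and add double bonds, both for palmitate and for the polyunsaturated fatty acids that come from the diet. Acyl groups are joined to a glycerol backbone to give triglycerides, which hepatocytes store in droplets coated by perilipins or export in lipoproteins.

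The authors' deposited table gave, for each gene, the mean normalized count over all 5 libraries, a log2 fold change with its standard error, and a p-value of the Wald test adjusted by Benjamini-Hochberg. Single libraries were not analysed here, so whether the groups overlap is unknown. Fitted group means, in normalized counts, were computed from each gene's overall mean, its fold change and the group sizes. Folds are given with the 95% interval from the standard error, 4N against WT. Albumin (Alb) had the highest mean of all genes, with fitted means of 6210270 in 4N and 6185300 in WT. Hhex itself had fitted means of 6753 in 4N and 4607 in WT and did not pass the test (adjusted p = 0.286 in the authors' deposited table). All 12 erythroid markers rose, with log2 fold changes of 0.72 to 2.03 and a summed fitted mean of 3317500 in 4N against 984184 in WT. Of 12 hepatocyte markers, 0 rose and 3 fell (0 and 5 at an unadjusted p under 0.05 in the Wald test), and their summed fitted mean was 12648800 in 4N against 13072300 in WT. Among all genes, 7.94% were called higher and 7.41% lower, and among those with a mean of at least 1000, 11.9% and 10.3%. The macrophage markers had 4 higher and 1 lower of 10, and the stellate cell markers 4 higher and 2 lower of 10. The intestinal markers had 2 higher and 1 lower of 4 measured, with Mogat2 of the lipid list as 1 of the 2. The endothelial markers (8) and the adipocyte markers (5 measured of 10) had 0 calls in the Wald test (1 and 0 at an unadjusted p under 0.05). The part of these cell types in the results below was not tested, and in whole liver fewer cells of a type and less RNA per cell cannot be told apart.

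Fasn, Elovl6 and both enzymes that supply cytosolic acetyl-CoA (Acly and Acss2) had higher transcripts in 4N liver, as did Gpam, an enzyme of the first step of triglyceride assembly. Elovl2 and Elovl5, which lengthen polyunsaturated fatty acids, and the main droplet coat gene Plin2 had lower ones. Of the 36 genes, 13 rose, 9 fell and 14 did not pass at an adjusted p under 0.05. Among all genes 15.3% passed, 7.94% as higher and 7.41% as lower. Since most lipid genes are abundant, the closer background is the 8656 genes whose mean reached 1000 normalized counts, of which 22.2% passed, 11.9% as higher and 10.3% as lower. Of the 28 lipid genes with such a mean, 11 rose and 7 fell. The median log2 fold change of the 36 genes was 0.12, against 0.00 for all genes. Changes of at least 4-fold were called in 5 higher genes and 2 lower ones, against 2.41% and 2.61% of all genes. When the test asked for a change beyond 1.5-fold, 7 lipid genes were higher and 3 lower, against 2.26% and 2.55% of all genes. When the Wald statistics were referred to a t distribution with 3 degrees of freedom rather than to the normal one, 0 of the 36 genes and 0 of all 23022 passed (smallest adjusted p of any gene 0.372). At an unadjusted p under 0.05 in that test, 10 of the lipid genes were higher and 6 lower, against 5.6% and 5.32% of all genes. The falls also depended on scaling. When the median of 27 secreted plasma proteins was set to 0, called centring below, all log2 fold changes moved up by 0.55, and 18 lipid genes were higher and 3 lower, against 28.1% and 3.8% of all genes. The share of rises among all calls then went from 51.7% to 88.1%. Hhex and Alb, the latter itself among the 27, also passed as higher there (adjusted p = 0.00375 and 0.0348 in the recentred Wald test).

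**Figure D1:**
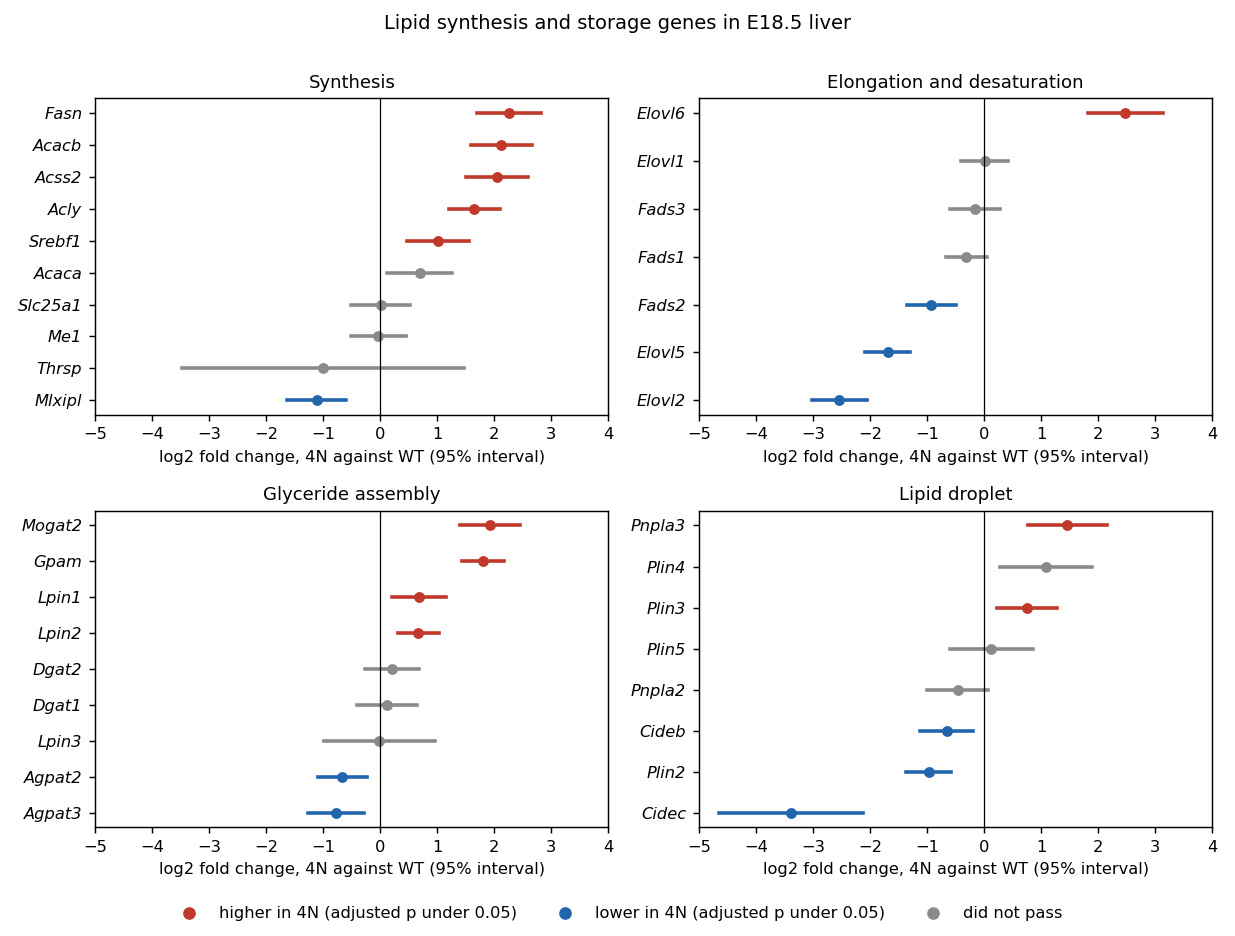
Log2 fold change of each lipid gene, 4N against WT, with its 95% interval, in 1 panel per step. Red points passed as higher, blue as lower, and grey did not pass. Elovl3 and Cidea, with no reads in the WT group, are not drawn. Rises lead the synthesis and glyceride panels, while the elongation panel runs from Elovl6 at 2.48 to Elovl2 at -2.53.

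Of the 10 genes of fatty acid synthesis, 5 rose, 1 fell and 4 did not pass, with a median log2 fold change of 0.85. Fatty acid synthase (Fasn), which builds palmitate from malonyl-CoA, had fitted means of 30236 in 4N and 6304 in WT. It was 4.80-fold higher (95% interval 3.25 to 7.08, adjusted p = 2.83e-13 in the authors' deposited table). ATP citrate lyase (Acly), which releases acetyl-CoA from citrate in the cytosol, went from 9366 in WT to 29423 in 4N, a 3.14-fold rise (2.30 to 4.29). Acss2 makes acetyl-CoA from acetate instead, and its fitted means were 5196 in 4N and 1262 in WT, 4.12-fold higher (2.82 to 6.01). Transcripts of both routes to cytosolic acetyl-CoA were thus higher. In contrast, Slc25a1, the carrier that exports citrate from the mitochondrion, stood at 4939 and 4919 (ratio 1.00, 0.70 to 1.44, not passed). Me1, an enzyme that supplies NADPH for synthesis, stood at 1751 and 1792 (ratio 0.98, 0.70 to 1.37, not passed).

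The acetyl-CoA carboxylases make malonyl-CoA, the cytosolic form Acaca for synthesis and the mitochondrial-surface form Acacb as a brake on fatty acid oxidation. Acacb was 4.36-fold higher (3.00 to 6.35), with fitted means of 2946 in 4N and 675 in WT (adjusted p = 1.22e-12 in the authors' deposited table). Acaca was 1.62-fold higher (1.09 to 2.40) and did not pass (6805 against 4207, adjusted p = 0.0920 in the authors' deposited table). It passed when the secreted plasma proteins were centred on 0 (adjusted p = 1.8e-04), and whether the 2 genes differ in their change was not tested. Per kilobase of exon, Acacb took 31.9% of the summed level of the pair in 4N and 14.8% in WT.

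The transcription factors of the pathway moved in opposite directions. Srebf1, whose product switches on lipogenic genes in response to insulin, was 2.02-fold higher (1.39 to 2.94), with 13984 in 4N and 6929 in WT (adjusted p = 0.00295 in the authors' deposited table). Mlxipl encodes the carbohydrate-responsive factor ChREBP and was 2.16-fold lower (1.51 to 3.09), with 3400 in 4N and 7355 in WT (adjusted p = 3.86e-04 in the authors' deposited table). Its fall no longer passed with the secreted plasma proteins centred on 0 (log2 fold change -0.56, adjusted p = 0.0894). Thrsp, a lipogenic accessory protein, was scarce, at 29.0 in 4N and 58.3 in WT, and its interval of 0.09 to 2.75 for the ratio leaves its direction undetermined. Exons of Srebf1 and Rai1 lie on opposite strands and share up to 109 bases in the annotation used. Whether counting used strand is not given in the sources used here.

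**Figure D2:**
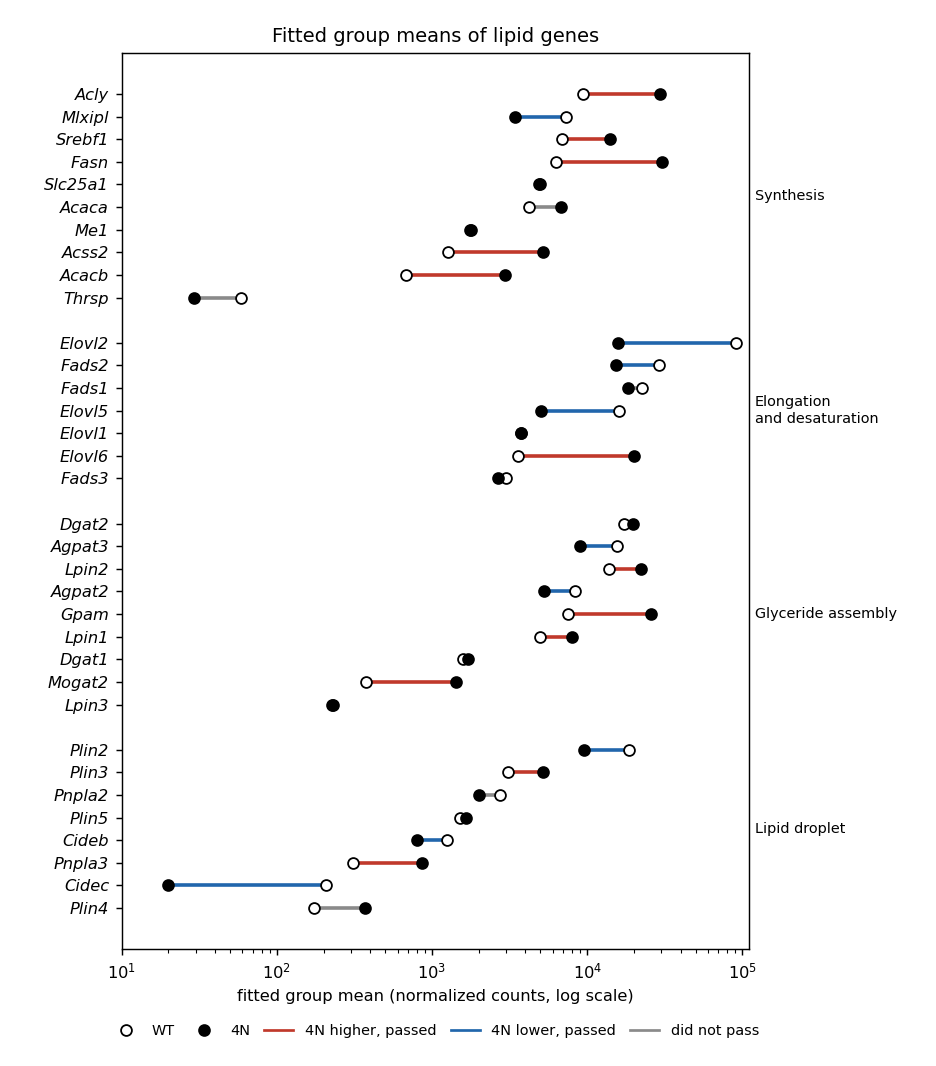
Fitted group means of the lipid genes (log scale, normalized counts), WT as open and 4N as filled circles, joined by a line coloured by the result of the test. The means are not per length, so they compare groups within a gene and not genes with each other. Elovl3 and Cidea, with no reads in the WT group, are not drawn. Among the 34 genes drawn, the longest lines are those of Cidec, Elovl2, Elovl6 and Fasn.

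The promoters of the 3 synthesis genes that rose at least 4-fold are shown to let their sequences be compared. Each line gives the 250 bases before a RefSeq transcription start (GRCm38.p6, 5′ to 3′ on the gene's strand). Capitals mark matches, on either strand, to CCAAT (bound by NF-Y), GGGCGG (the GC box), CACGTG (the E-box) and TCACNCCAC (a sterol regulatory element core). The windows are chr11:120824548-120824797 on the minus strand for Fasn, chr5:114165268-114165517 on the plus strand for Acacb and chr2:155517793-155518042 on the plus strand for Acss2.
Fasn: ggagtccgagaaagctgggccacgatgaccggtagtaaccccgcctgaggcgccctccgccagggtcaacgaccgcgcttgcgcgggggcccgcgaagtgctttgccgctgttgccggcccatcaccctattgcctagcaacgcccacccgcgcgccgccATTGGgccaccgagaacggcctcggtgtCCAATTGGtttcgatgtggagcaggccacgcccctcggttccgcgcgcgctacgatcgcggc
Acacb: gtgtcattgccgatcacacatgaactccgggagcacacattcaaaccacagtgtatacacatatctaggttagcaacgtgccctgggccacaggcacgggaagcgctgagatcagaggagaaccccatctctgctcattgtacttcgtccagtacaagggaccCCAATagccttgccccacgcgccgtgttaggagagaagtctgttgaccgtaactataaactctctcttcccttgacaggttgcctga
Acss2: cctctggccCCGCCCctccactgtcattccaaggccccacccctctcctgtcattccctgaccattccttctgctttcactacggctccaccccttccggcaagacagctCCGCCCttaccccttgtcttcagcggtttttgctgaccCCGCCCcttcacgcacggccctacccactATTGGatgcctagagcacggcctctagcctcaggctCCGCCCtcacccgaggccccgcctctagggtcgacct
The Fasn window held 3 CCAAT matches, of which 2 overlap on opposite strands, the Acacb window 1, and the Acss2 window 1 together with 4 GC boxes. None of the 3 held the E-box or the sterol element core in these letters.

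Across the list, 31 of the 37 genes had at least 1 promoter in the RefSeq table, and Elovl3, Fads1, Dgat1, Dgat2, Mogat2 and Cidea did not. CCAAT was found in a promoter of 8 of the 11 matched genes that rose, 3 of the 9 that fell and 7 of the 10 that did not pass. It was present in 33.8% of all 32851 promoter windows of that length. A GC box was found in 7 of 11, 5 of 9 and 7 of 10 genes in the same order, against 32.7% of all windows. The E-box was found in Lpin2 among those that rose, Mlxipl and Elovl5 among those that fell, and Slc25a1 among the rest, against 6.02% of all windows. The sterol element core was found in Mlxipl alone of the 31, against 1.05% of all windows. Genes with several listed promoters were counted if any of them matched, so their shares are not on the same footing as the shares of windows.

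The elongase of palmitate rose, while 2 elongases of polyunsaturated fatty acids fell. Of 8 genes of elongation and desaturation, 2 rose, 3 fell and 3 did not pass, with a median log2 fold change of -0.24. Elovl6, which lengthens palmitate to stearate, was 5.56-fold higher (3.53 to 8.76), with fitted means of 20000 in 4N and 3596 in WT (adjusted p = 9.64e-12 in the authors' deposited table). Elovl2, which lengthens long polyunsaturated chains on the way to docosahexaenoic acid, was 5.79-fold lower (4.17 to 8.05). Its fitted means were 15738 in 4N and 91195 in WT (adjusted p = 3.06e-23 in the authors' deposited table). It had the highest mean of the 36 genes. Elovl5, which acts on shorter polyunsaturated chains, was 3.22-fold lower (2.45 to 4.23), at 5004 in 4N and 16117 in WT (adjusted p = 3.64e-15 in the authors' deposited table). Both falls, of Elovl2 and Elovl5, passed under every alternative tried except the t distribution. The ubiquitous Elovl1 stood at 3747 and 3723 (ratio 1.01, 0.76 to 1.34) and did not pass, although it passed as higher with the secreted plasma proteins centred on 0 (adjusted p = 0.0276). Its exons share up to 53 bases with Cdc20 on the opposite strand.

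Elovl3, a cold-induced elongase of brown fat, was called higher (adjusted p = 0.0189 in the authors' deposited table) with a fitted mean of 18.3 in 4N, while WT stood at the floor that the fit gives to a group with no reads, so no fold is given. Its exons touch those of Pitx3 on the opposite strand over 10 bases, and Pitx3 was itself placed at a log2 fold change of 5.41 on a mean of 4.80 normalized counts. The call of Elovl3 was lost at an adjusted p under 0.01 and when a change beyond 1.5-fold was asked for.

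The front-end desaturases put double bonds into polyunsaturated chains, and their genes lie next to each other on chromosome 19. Fads2, which takes the entry step, was 1.90-fold lower (1.40 to 2.56), with 15353 in 4N and 29130 in WT (adjusted p = 5.03e-04 in the authors' deposited table). This fall was lost with the secreted plasma proteins centred on 0 (log2 fold change -0.37, adjusted p = 0.200). Fads1, which acts later on the same chains, stood at 18297 and 22687 (ratio 0.81, 0.63 to 1.04), and Fads3, of less settled function, at 2676 and 2999 (ratio 0.89, 0.66 to 1.21). Neither passed, and with the secreted plasma proteins centred on 0 the values of both turned positive.

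Levels per kilobase of exon show how the make-up of the elongase transcripts differed. Elovl7, which is not on the list, stood at 153 in 4N and 114 in WT on this scale and is left out of the sums and orders that follow. The 5 elongases of the list summed to 10967 normalized counts per kilobase in 4N and 31292 in WT. Elovl2 took 73.5% of that sum in WT and 36.2% in 4N. Elovl6 took 1.87% in WT and 29.7% in 4N, and Elovl5 18.51% and 16.40%. Per kilobase, the order in WT was Elovl2, Elovl5, Elovl1, Elovl6 and Elovl3, and in 4N it was Elovl2, Elovl6, Elovl1, Elovl5 and Elovl3. The group means have no error of their own in these data, so neighbours in these orders were not tested against each other. The lengths come from an annotation of another build, and the level of a gene with long untranslated regions depends on which exons are counted.

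**Figure D3:**
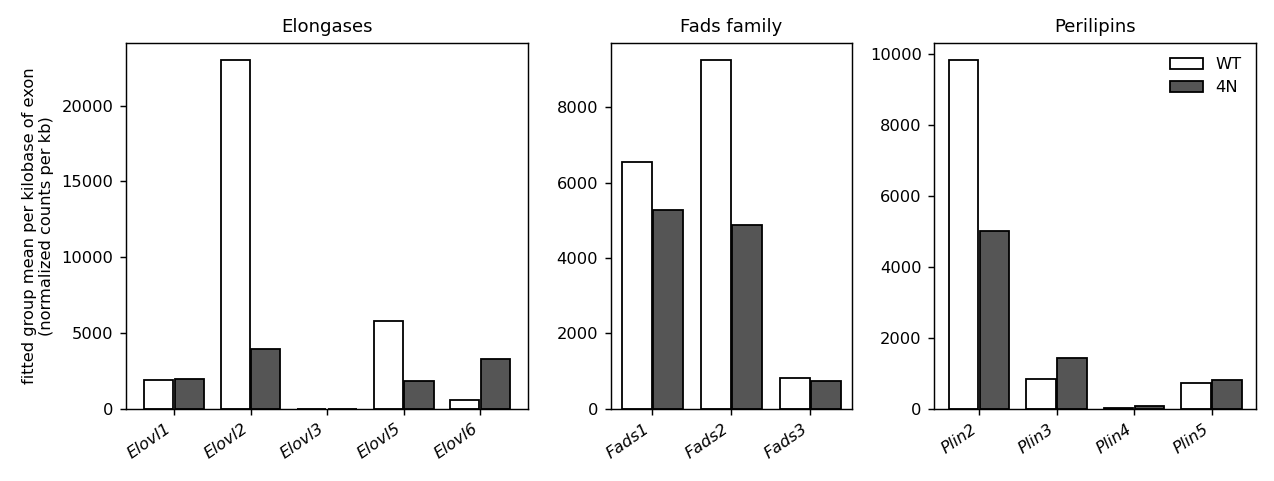
Fitted group means per kilobase of exon for the elongases, the Fads family and the perilipins, WT as open and 4N as filled bars, with no error bars because only group comparisons were analysed here. Elovl2 is the tallest elongase bar in both groups, at 22994 in WT and 3968 in 4N. Plin2 is the tallest perilipin bar in both.

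The promoters of Elovl6, which rose, and of Elovl5 and Elovl2, which fell, are shown for comparison, in the same notation as above. The windows are chr3:129532136-129532385 on the plus strand for Elovl6, chr9:77917115-77917364 on the plus strand for Elovl5 and chr13:41220404-41220653 on the minus strand for Elovl2. For Elovl2 this is the window of the first of its 2 listed starts.
Elovl6: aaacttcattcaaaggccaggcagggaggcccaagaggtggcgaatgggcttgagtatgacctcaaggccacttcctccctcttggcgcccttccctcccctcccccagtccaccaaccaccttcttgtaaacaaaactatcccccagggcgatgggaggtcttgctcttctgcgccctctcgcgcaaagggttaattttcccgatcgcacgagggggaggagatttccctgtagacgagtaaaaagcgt
Elovl5: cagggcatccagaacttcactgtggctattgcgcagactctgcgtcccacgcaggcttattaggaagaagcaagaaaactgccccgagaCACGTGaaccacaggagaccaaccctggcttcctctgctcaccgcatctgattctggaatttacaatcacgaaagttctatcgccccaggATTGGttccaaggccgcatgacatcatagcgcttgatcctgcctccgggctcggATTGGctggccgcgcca
Elovl2: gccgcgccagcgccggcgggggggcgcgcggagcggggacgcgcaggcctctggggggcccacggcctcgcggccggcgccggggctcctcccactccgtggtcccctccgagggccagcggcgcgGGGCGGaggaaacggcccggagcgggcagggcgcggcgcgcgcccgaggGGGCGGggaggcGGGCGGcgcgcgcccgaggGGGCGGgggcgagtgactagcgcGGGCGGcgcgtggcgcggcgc
The Elovl6 window held no match to any of the 4 motifs. The Elovl5 window held 1 E-box and 2 CCAAT matches, and the Elovl2 window held 5 GC boxes at a GC content of 87.2%, against a median of 52.4% over all windows. The window of the other listed Elovl2 start, not shown, held no match to these motifs, at a GC content of 79.6%.

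Genes of glyceride assembly moved both ways. Of 9 measured genes, 4 rose, 2 fell and 3 did not pass, with a median log2 fold change of 0.20. Gpam, the mitochondrial enzyme that puts the first acyl chain on glycerol phosphate, was 3.47-fold higher (2.69 to 4.49). Its fitted means were 25953 in 4N and 7476 in WT (adjusted p = 3.45e-19 in the authors' deposited table). Other enzymes of that step, which are not on the list, did not rise with it: Gpat3 was lower (log2 fold change -1.80) and Gpat4 did not pass (-0.10). Agpat enzymes carry out the next acylation, and both of those on the list fell. Outside the list, Agpat4 was higher (log2 fold change 1.16), while Agpat1 (0.45) and Agpat5 (-0.08) did not pass. Agpat2 was 1.59-fold lower (1.18 to 2.14), at 5280 in 4N and 8394 in WT, and Agpat3 was 1.72-fold lower (1.22 to 2.41), at 9032 and 15504. Neither fall passed with the secreted plasma proteins centred on 0 (adjusted p = 0.744 and 0.538) or at an adjusted p under 0.01.

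The lipins remove the phosphate to give diacylglycerol. Lpin1 was 1.603-fold higher (1.16 to 2.22), at 7936 in 4N and 4950 in WT. The more abundant Lpin2 was 1.59-fold higher (1.23 to 2.04), at 22062 and 13914. Lpin3 was scarce, at 228 and 230, and did not pass. Per kilobase, Lpin2 took 72.4% of the lipin sum in 4N and 72.0% in WT, so the make-up of this family was close in the 2 groups. The call of Lpin1 was lost at an adjusted p under 0.01 (0.0328 in the authors' deposited table) and when genes whose mean reached 10000 were centred on 0.

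The final acylation to triglyceride did not pass at either enzyme. Dgat2, the main enzyme for newly made fatty acids, stood at 19831 in 4N and 17274 in WT (ratio 1.15, 0.83 to 1.59), and Dgat1 at 1705 and 1572 (ratio 1.08, 0.75 to 1.56). Both passed as higher with the secreted plasma proteins centred on 0 (adjusted p = 0.00839 and 0.0395). Mogat2, which makes diacylglycerol from monoacylglycerol and is best known from the intestine, was 3.79-fold higher (2.62 to 5.47). Its fitted means were 1431 in 4N and 378 in WT (adjusted p = 8.30e-11 in the authors' deposited table). Intestinal genes fixed beside it did not move together, and not all of them are genes of enterocytes. Vil1 was higher (log2 fold change 2.11) and Fabp2 lower (-3.05) in the authors' deposited table, and Lgr5 did not pass (-0.37). Cdx2 and Sis were looked up by symbol and were not among the genes of the authors' comparison.

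Lipid droplet genes moved both ways. Of 9 genes, 2 rose, 3 fell and 4 did not pass, with a median log2 fold change of 0.13. Plin2, the main droplet coat protein of hepatocytes, was 1.96-fold lower (1.49 to 2.57), with 9489 in 4N and 18562 in WT (adjusted p = 3.31e-05 in the authors' deposited table). With the secreted plasma proteins centred on 0 it no longer passed (log2 fold change -0.41, adjusted p = 0.101). Plin3, a coat protein that is also found free in the cytosol, was 1.68-fold higher (1.16 to 2.44), at 5221 and 3099, a call lost at an adjusted p under 0.01 and when genes whose mean reached 10000 were centred on 0 (adjusted p = 0.0616). Plin5, which links droplets to mitochondria, stood at 1663 and 1522 (ratio 1.09, 0.66 to 1.81) and did not pass. Plin4 was 2.12-fold higher (1.21 to 3.71) at 369 and 174 and missed the threshold (adjusted p = 0.0529 in the authors' deposited table), and it passed when genes with a mean under 50 were left out. Per kilobase, Plin2 took 85.9% of the perilipin sum in WT and 68.7% in 4N, while Plin3 took 7.43% and 19.6%.

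The CIDE proteins sit at droplet contacts and help droplets fuse or load lipoproteins. Cidec, which makes droplets grow and is abundant in fat and fatty liver, was 10.4-fold lower (4.35 to 25.0), at 20.0 in 4N and 209 in WT (adjusted p = 4.36e-06 in the authors' deposited table). It fell under every alternative except the t distribution, and its interval was the widest among the genes that fell. Cideb, the hepatocyte form linked to lipoprotein lipidation, was 1.58-fold lower (1.14 to 2.18), at 796 and 1255, which did not pass with the secreted plasma proteins centred on 0 (adjusted p = 0.796). Exons of Cideb share up to 522 bases with Nop9 on the opposite strand. Cidea, a brown fat gene, had a fitted mean of 5.76 in 4N and no reads in WT and did not pass.

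The patatin-like lipases differed. Pnpla3, a droplet enzyme that is switched on with lipogenesis in mouse liver, was 2.75-fold higher (1.70 to 4.45), with 858 in 4N and 312 in WT (adjusted p = 5.66e-04 in the authors' deposited table). Pnpla2, the lipase that takes the first acyl chain off stored triglyceride, stood at 1996 and 2755 (ratio 0.72, 0.50 to 1.05) and did not pass.

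**Figure D4:**
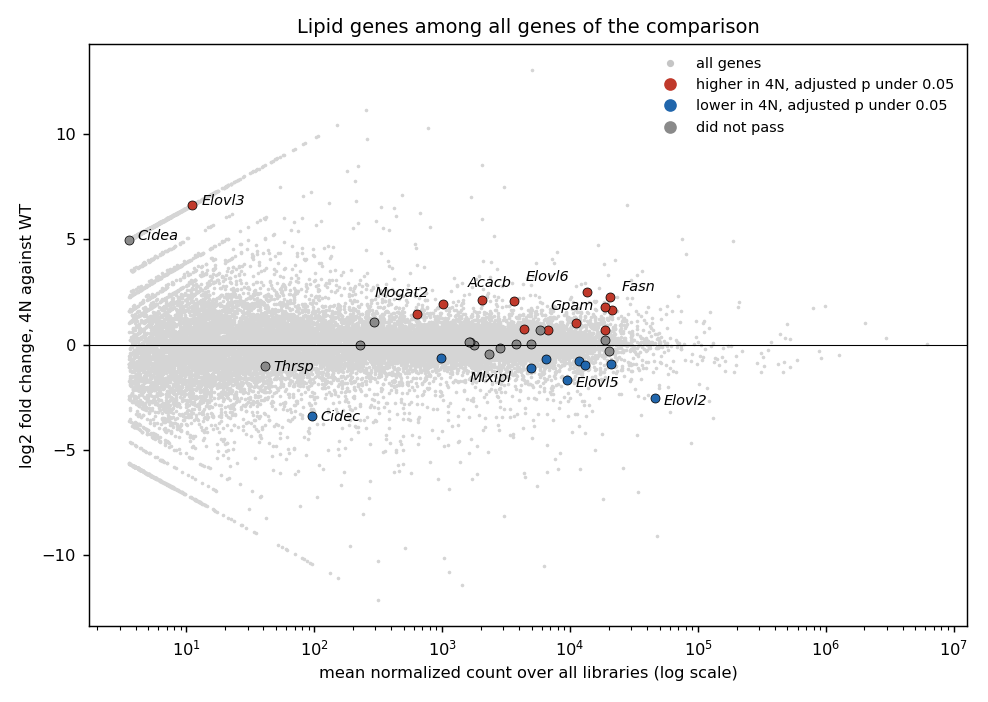
Log2 fold change, 4N against WT, against the mean normalized count over all libraries (log scale) for all 23022 genes in grey, with the lipid genes as larger points coloured by the result of the test. Elovl3 and Cidea lie on the upper diagonal line formed by genes with no reads in WT. Most of the other lipid genes lie above a mean of 1000.

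Of 84 measured genes of the same pathways outside the list, 15 rose (17.9%) and 21 fell (25%). Among all genes 7.94% were higher and 7.41% lower, and among those with a mean of at least 1000, 11.9% and 10.3%. The share called ran by list from 20% for control of lipogenesis to 61.5% for other droplet and lipolysis genes. It was 15.3% of all genes and 22.2% of those with such a mean. Among 15 genes that control lipogenesis, 2 rose and 1 fell. Insig1, which holds the SREBP escort protein in the endoplasmic reticulum and is itself an SREBP target, was 4.84-fold higher (3.28 to 7.12), at 33767 in 4N and 6984 in WT. Its relative Insig2 was 3.64-fold lower (2.64 to 5.02), at 1600 and 5819. Srebf2, the factor for sterol synthesis, was 1.78-fold higher (1.33 to 2.39). The escort Scap, the activating proteases Mbtps1 and Mbtps2, the liver X receptors Nr1h2 and Nr1h3 and the ChREBP partner Mlx did not pass.

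Among 14 genes supplying carbon and NADPH, 4 rose and 1 fell. Pklr, which encodes the pyruvate kinase of both liver and red blood cells, was 2.58-fold higher (1.95 to 3.41). Its liver and red cell forms cannot be told apart in these values. The pentose phosphate enzyme Tkt was 1.77-fold higher (1.27 to 2.48), and the mitochondrial pyruvate carrier subunit Mpc2 was 2.23-fold lower (1.69 to 2.93). Glycolytic and pentose phosphate enzymes are also active in red blood cells, whose markers were higher in 4N liver, and their part in these values was not tested.

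Partners of the elongation cycle and other desaturases had 4 higher and 3 lower of 13. All 4 rises were stearoyl-CoA desaturases, which put the double bond into stearate and palmitate. Scd1 had fitted means of 26680 in 4N and 1016 in WT, and Scd2 of 128548 and 6634. The electron donor Cyb5a and the dehydratase Hacd2 of the elongation cycle were 1.73-fold (1.32 to 2.26) and 1.79-fold lower (1.32 to 2.44), and neither passed with the secreted plasma proteins centred on 0 (adjusted p = 0.392 and 0.351).

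The remaining pathway lists, on fatty acid activation and binding, on other glyceride assembly and export, and on other droplet and lipolysis genes, each had more falls than rises. Their median log2 fold changes were -0.13, -0.44 and -0.63. Centring the secreted plasma proteins moved all values up by 0.55, and the counts of these lists were not taken again there. The falls given below with a fold still passed under that centring. Fatty acid activation and binding had 1 higher and 4 lower of 14. Slc27a2, which activates very long chains, was 4.18-fold lower (3.09 to 5.65), the binding protein Fabp2 8.27-fold lower (5.32 to 12.9), and the synthetase Acsl3 1.79-fold higher (1.33 to 2.40). Other glyceride assembly and export genes had 2 higher and 6 lower of 15. Tm6sf2, which helps load triglyceride onto lipoproteins, was 16.6-fold lower (11.2 to 24.7), at 115 in 4N and 1917 in WT (adjusted p = 4.48e-41 in the authors' deposited table). Gpat3, an enzyme of the endoplasmic reticulum that catalyses the same step as Gpam, was 3.47-fold lower (2.41 to 5.01), while Agpat4 was 2.24-fold higher (1.496 to 3.35) and the sterol acyltransferase Soat1 1.54-fold higher (1.18 to 2.01). Other droplet and lipolysis genes had 2 higher and 6 lower of 13. The lower ones were the droplet-forming Fitm1 and Fitm2, the droplet dehydrogenases Hsd17b11 and Hsd17b13, and the lipases Mgll and Lipa. Fitm1 was scarce, with a mean of 72.5 normalized counts. Whether Fitm1, Fitm2, Hsd17b11 and Mgll still pass with the secreted plasma proteins centred on 0 was not looked up. Hsd17b13 was 2.64-fold lower (2.05 to 3.40) and Lipa, the lysosomal lipase, 2.58-fold lower (1.89 to 3.52). Abhd5, the activator of Pnpla2, was 2.35-fold higher (1.68 to 3.29), and Hilpda, a hypoxia-induced inhibitor of Pnpla2, was 2.17-fold higher (1.46 to 3.23).

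**Figure D5:**
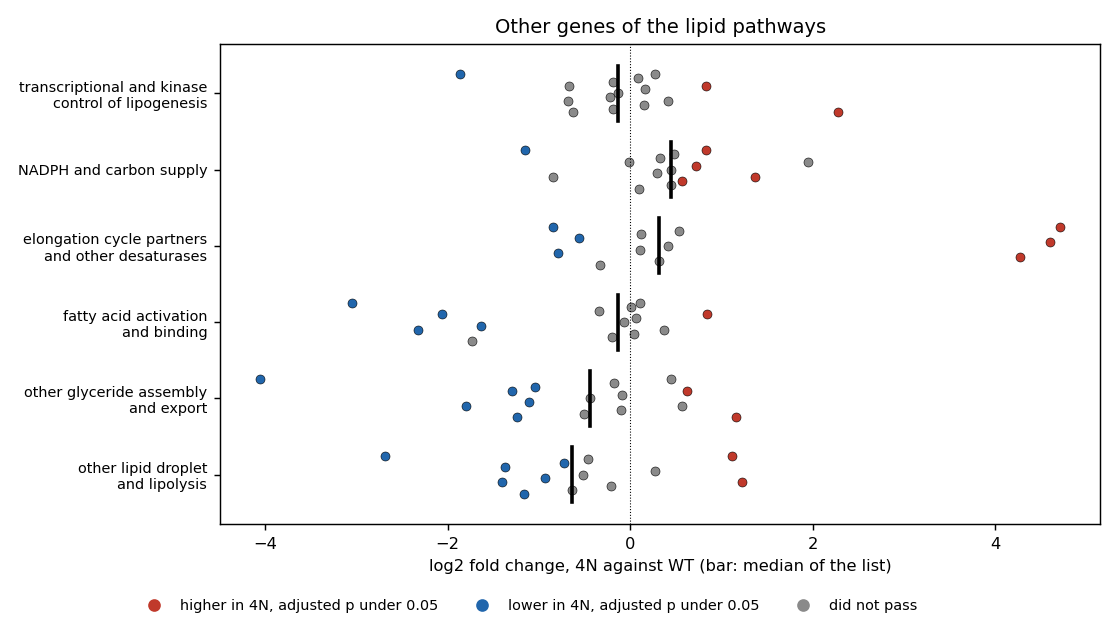
Log2 fold changes, 4N against WT, of the measured pathway genes outside the list, 1 row per group of genes, with points coloured by the result of the test and a bar at each group's median. Scd3, with no reads in WT, is counted in its group's median but not drawn. The medians run from 0.45 for carbon and NADPH supply to -0.63 for droplets and lipolysis.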

How the data were processed

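RNA of 5 livers (3 of 4N, 2 of WT) was sequenced from poly(A)-selected libraries primed with random hexamers, per the labels' protocols. Per the submitters' processing notes, reads were placed on GRCm39. The aligner, the counter and the annotation were not named in those sources. What the authors deposited is 1 table whose column names are those of a DESeq2 result, per the file headers. The signal of a gene is its normalized count averaged over the 5 libraries, per the file headers. Fold changes and their standard errors are deposited as log2 values. The deposited Wald score is their quotient, which was checked. Its p-values and adjusted p-values are the authors', and on a recomputation they matched the 2-sided normal tail and a Benjamini-Hochberg adjustment over all 23022 genes. The smallest mean listed was 3.53. The depth of single libraries is unknown, and the means summed to 78112300.

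The planned count tests could not be run without values of single libraries, so the authors' Wald test was used. The table does not name its numerator. Genes with no reads in one group are fitted at a floor near 0.184 normalized counts. With positive values read as 4N higher, 606 positive and 247 negative genes lay near that floor and were taken as such genes. Their empty group came to a median of 0.186 and 0.175 under this reading, and 0.274 and 0.118 under the other. Since the genes were picked under the first reading, these medians had to favour it and cannot decide the direction. Standard errors were not used in the picking. Among the negative genes, 12 had a standard error under 1.44, the smallest possible with 2 empty libraries, against 0 of the positive ones. Positive values were read as 4N higher on these standard errors, in genes picked under that reading.

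Members and lists were chosen with earlier results of these data known. All members present were named, with up to 2 higher and 2 lower called genes (smallest adjusted p) in each of 6 pathway lists. Further genes of those lists are also named in the text, outside that rule. Exon lengths came from the basic set of GENCODE M21 and promoters from RefSeq (GRCm38.p6), both of another build. The median standard error was 0.25 for the 28 members with a mean of at least 1000 (0.18 to 0.37), and it was 0.64 to 3.42 for the 4 with a mean under 100. Steps were tested on simulated data. Software was numpy 2.4.6 and scipy 1.17.1 for the statistics, matplotlib 3.10.9 for the figures and pandas 2.3.3 for tables, all under Python 3.11.15.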

Additional observations from a re-analysis of the deposited data

How the results depend on the processing

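The counts of 13 higher and 9 lower genes became 7 and 3 when a change beyond 1.5-fold was asked for, against 2.26% and 2.55% of all genes. The calls lost there were those of Srebf1, Mlxipl, Elovl3, Fads2, Agpat2, Agpat3, Lpin1, Lpin2, Pnpla3, Plin2, Plin3 and Cideb. They became 0 and 0 when a t distribution with 3 degrees of freedom replaced the normal one, and the lower count was 3 with the 27 secreted plasma proteins centred on 0. By step, only counts that went to 0 or changed by more than 1.5-fold are given here. Asking for a change beyond 1.5-fold gave synthesis 0 lower, elongation 1 higher, glyceride assembly 2 higher and 0 lower, and droplets 0 higher and 1 lower. The t distribution gave 0 higher and 0 lower in all 4 steps. An adjusted p under 0.01 gave elongation 1 higher, glyceride assembly 0 lower and droplets 1 higher. Of all 23022 genes, 1210 were higher and 1164 lower at that threshold. Elongation also had 1 higher gene when genes with a mean under 50, or genes with no reads in one group, were left out, since each leaves out Elovl3. The higher genes were then 1729 of 15230 and 1649 of 22169 genes tested. Centring the secreted plasma proteins gave synthesis 0 lower, glyceride assembly 0 lower and droplets 1 lower, against 3.8% of all genes lower. This centring turned the sign of 5 genes that had not passed, Me1 (0.52), Fads1 (0.24), Fads3 (0.39), Lpin3 (0.54) and Pnpla2 (0.090, all log2). Centring genes with a mean of at least 10000 gave droplets 1 higher, against 1663 higher of all 23022 genes. It moved values by -0.053, which turned Slc25a1 (-0.047), Elovl1 (-0.043) and Alb (-0.047). Of the 36 genes, 32 kept their direction and side of the threshold under that centring and 20 under the former. No paired analysis was possible because the groups share no replicate numbers. Leaving out single libraries and refitting counts were not run. Low counts limit Thrsp, Cidea, Elovl3 and Cidec, and among the 10 abundant genes that did not pass the intervals of the ratio lie between 0.50 and 2.40.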

Other observations

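Some members that lie next to each other in the genome had different calls. On chromosome 7, Mogat2 and Dgat2 had no protein-coding gene between them in RefSeq (GRCm38.p6), and Mogat2 rose (3.79-fold) while Dgat2 did not pass (1.15-fold). On chromosome 19, Fads2 fell while its neighbours on either side, Fads1 and Fads3, did not pass, and on chromosome 17 neither of the neighbours Plin4 and Plin5 passed. Whether neighbours differed in their change was not tested.

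Pairs that catalyse or control the same step also went opposite ways. For the first acylation of glycerol phosphate, Gpam rose 3.47-fold and Gpat3 fell 3.47-fold, while Gpat4 did not pass (log2 fold change -0.10 in the authors' deposited table). The 2 Insig genes, which hold the same escort protein, were 4.84-fold higher and 3.64-fold lower. These pairs were picked after their values were seen.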
